A study of Ovis aries with 24 samples.

Results

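The sheep genes, VEGFA, SYNJ2, TTLL4, CABLES2 and AFF1, were described across pituitary cells that had or had not been sorted for gonadotropes, with and without estradiol (E2). They are 5 of the 27054 features in the count tables. They were selected on the measured E2 rise, which was larger in sorted than in unsorted cells, so the E2 values below describe that choice and carry no test. Their Ensembl sheep identifiers are ENSOARG00000008334 for VEGFA, ENSOARG00000004304 for SYNJ2, ENSOARG00000019690 for TTLL4, ENSOARG00000012989 for CABLES2 and ENSOARG00000004522 for AFF1. All 5 passed the filter on low counts in each comparison.

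The cells came from pituitaries of ovariectomized ewes of the Western white faced breed. They were dispersed and cultured, and 24 hours later they were infected with an adenovirus built to express green fluorescent protein (GFP) in gonadotropes. The promoter that drives GFP is not named in the labels. After 3 more days the cells received 10 nM E2 or the ethanol vehicle for 6 hours, and were then sorted by fluorescence. The 4 groups of 6 libraries were sorted E2, sorted vehicle, unsorted E2 and unsorted vehicle. All of them share the ovariectomy, the culture and the infection. Whether the unsorted cells also passed through the sorter is not said, and neither is the number of animals or whether equal replicate numbers share a culture. The p-values below therefore measure the spread between these libraries, which may be technical.

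Estradiol acts mainly through the receptor ESR1, a transcription factor that binds DNA when it holds the hormone. In the pituitary it acts on gonadotropes, the cells that make luteinizing and follicle-stimulating hormone, both directly and through other cells. The 5 genes have separate roles. VEGFA is a secreted growth factor for blood vessels. SYNJ2 removes phosphates from membrane inositol lipids, and TTLL4 adds glutamate to tubulin and other proteins, as shown in mice. CABLES2 is an adaptor related to CABLES1, which binds the kinases CDK5 and ABL1, and AFF1 is a scaffold of the super elongation complex, which releases paused RNA polymerase in human cells.

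Total counts ran from 4.19 M to 6.19 M in replicates 1 to 3 of each group and from 19.2 M to 37 M in replicates 4 to 6. Each group thus holds 3 shallow and 3 deep libraries. Among the deep ones, sorted libraries had 19.2 M to 22.5 M and unsorted libraries 32.1 M to 37 M, so depth differed with sorting there. The 6 measured gonadotrope markers (CGA, LHB, FSHB, GNRHR, NR5A1 and CHGA) were all higher in sorted cells by edgeR's quasi-likelihood test, where 33.8% of all tested genes were higher. Their summed level was 2848.9 to 5619.1 CPM (counts per 1 M counts of a library) in sorted E2 libraries, 2682.9 to 5937.4 in sorted vehicle libraries, 337.9 to 1675.8 in unsorted E2 libraries and 350.0 to 1491.0 in unsorted vehicle libraries. Markers of other pituitary hormone cells were called higher in sorted cells too, 4 of 4 tested for lactotropes, 4 of 4 for corticotropes, 3 of 4 for somatotropes and 2 of 3 for thyrotropes. Lactotrope markers summed to 58164.3 to 155244.5 CPM in sorted E2, 68019.2 to 178348.2 in sorted vehicle, 41571.3 to 96049.7 in unsorted E2 and 39334.0 to 90909.5 CPM in unsorted vehicle libraries. Fibroblast and pericyte markers summed to 753.2 to 1752.0 CPM in sorted E2, 687.0 to 1445.1 in sorted vehicle, 4178.4 to 8785.8 in unsorted E2 and 3633.2 to 9322.9 CPM in unsorted vehicle libraries. Of 9 tested, 6 were called lower and 1, DCN, higher in sorted cells, where 32.5% of all genes were lower. None of these named markers was at 0 throughout a group. The part of the other cell types in the results below was not tested. These are bulk libraries, in which fewer cells of a type and less RNA per cell cannot be told apart.

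VEGFA showed the highest fold of the 5 under E2 in sorted cells. Its lowest, median and highest levels were 54.1, 65.5 and 90.5 CPM in sorted E2 libraries and 17.4, 22.5 and 37.7 CPM in sorted vehicle libraries. In unsorted cells they were 33.9, 41.5 and 50.6 CPM with E2 and 22.8, 32.0 and 51.2 CPM with vehicle. All 6 sorted E2 libraries lay above every library of the other 3 groups, and the remaining neighbours in the order (unsorted E2, unsorted vehicle, sorted vehicle) overlapped. The fitted E2 difference was 1.53 ± 0.18 (log2 ± SE, n = 6 each), or 2.89-fold, in sorted cells and 0.36 ± 0.18 in unsorted cells. The difference between those effects was 1.17 ± 0.26, and 1.17 ± 0.17 with replicate number as a block. Within replicate numbers, E2 over vehicle ran from 2.39-fold to 3.68-fold in sorted cells and from 0.891-fold to 1.59-fold in unsorted cells, where only replicate 2 was below its vehicle library.

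SYNJ2 was the most variable of the 5 in sorted cells under E2. It had 10.8, 19.8 and 32.2 CPM (lowest, median, highest) in sorted E2 libraries and 6.38, 7.46 and 11.1 CPM in sorted vehicle libraries. Unsorted libraries had 11, 14.2 and 16.8 CPM with E2 and 9.79, 12.5 and 16.4 CPM with vehicle. The sorted groups overlapped by 1 library on each side, E2 replicate 2 at 10.8 CPM and vehicle replicate 1 at 11.1 CPM, yet in each of the 6 replicate numbers the E2 library was the higher. Every neighbouring pair of groups in the order sorted E2, unsorted E2, unsorted vehicle and sorted vehicle overlapped. The E2 difference was 1.34 ± 0.22 (log2 ± SE), or 2.53-fold, in sorted cells and 0.16 ± 0.15 in unsorted cells, and their difference was 1.18 ± 0.27 (1.20 ± 0.19 with the replicate block). By replicate number the ratio ran from 1.60-fold in replicate 2 to 3.5-fold in replicate 5 in sorted cells, and from 0.963-fold to 1.47-fold in unsorted cells.

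TTLL4 had the smallest spread of the 5 between sorted libraries. Sorted libraries held 48.1, 53.0 and 61.5 CPM (lowest, median, highest) with E2 and 30.5, 32.3 and 37.3 CPM with vehicle, and unsorted libraries held 41.9, 46.8 and 49.2 CPM with E2 and 40.9, 43.0 and 48.4 CPM with vehicle. The sorted vehicle libraries were the lowest and overlapped none of the other groups. Sorted E2 libraries were higher than unsorted E2 libraries in 5 of 6 replicate numbers, and those 2 groups overlapped. E2 over vehicle was 0.72 ± 0.09 (log2 ± SE), or 1.65-fold, in sorted cells and 0.09 ± 0.08 in unsorted cells, which gave a difference of 0.63 ± 0.11. The ratios within a number were 1.36-fold to 1.96-fold in sorted cells and 0.983-fold to 1.15-fold in unsorted cells.

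CABLES2 was counted from few reads, with 43 to 220 counts in sorted E2 libraries, 14 to 88 in sorted vehicle, 25 to 251 in unsorted E2 and 18 to 216 in unsorted vehicle libraries. Its levels were 6.90, 10.3 and 12.1 CPM (lowest, median, highest) in sorted E2 libraries and 2.41, 3.48 and 4.29 CPM in sorted vehicle libraries, against 4.52, 5.62 and 6.70 CPM in unsorted E2 libraries and 3.59, 5.84 and 6.24 CPM in unsorted vehicle libraries. Sorted E2 libraries were above all others, and the unsorted groups could not be ordered. Sorted vehicle libraries were below the unsorted vehicle library of the same number in 6 of 6 numbers, though the ranges overlapped. The E2 difference was 1.47 ± 0.18 (log2 ± SE), or 2.77-fold, in sorted cells and 0.08 ± 0.17 in unsorted cells, with a difference between them of 1.38 ± 0.24. Replicate 3 gave 4.84-fold in sorted cells, the largest single ratio in the set, and the other numbers gave 1.95-fold to 2.83-fold.

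With vehicle, AFF1 was higher in sorted than in unsorted cells in 6 of 6 replicate numbers, and the other 4 genes in 0 or 1 of 6. It had 108.6, 138.2 and 153.4 CPM (lowest, median, highest) in sorted E2 libraries, 62.0, 69.1 and 86.9 CPM in sorted vehicle libraries, 56.4, 60.3 and 71.5 CPM in unsorted E2 libraries and 47.2, 50.6 and 54.2 CPM in unsorted vehicle libraries. Only the neighbours sorted vehicle and unsorted E2 overlapped in that order. AFF1 was also the only one of the 5 whose unsorted E2 and unsorted vehicle libraries did not overlap. The E2 difference was 0.90 ± 0.11 (log2 ± SE), or 1.87-fold, in sorted cells and 0.29 ± 0.08, or 1.23-fold, in unsorted cells, and the difference was 0.61 ± 0.13 (0.62 ± 0.12 with the replicate block). Replicate 1 had the smallest gap, with 1.64-fold in sorted cells and 1.42-fold in unsorted cells.

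**Figure D1:**
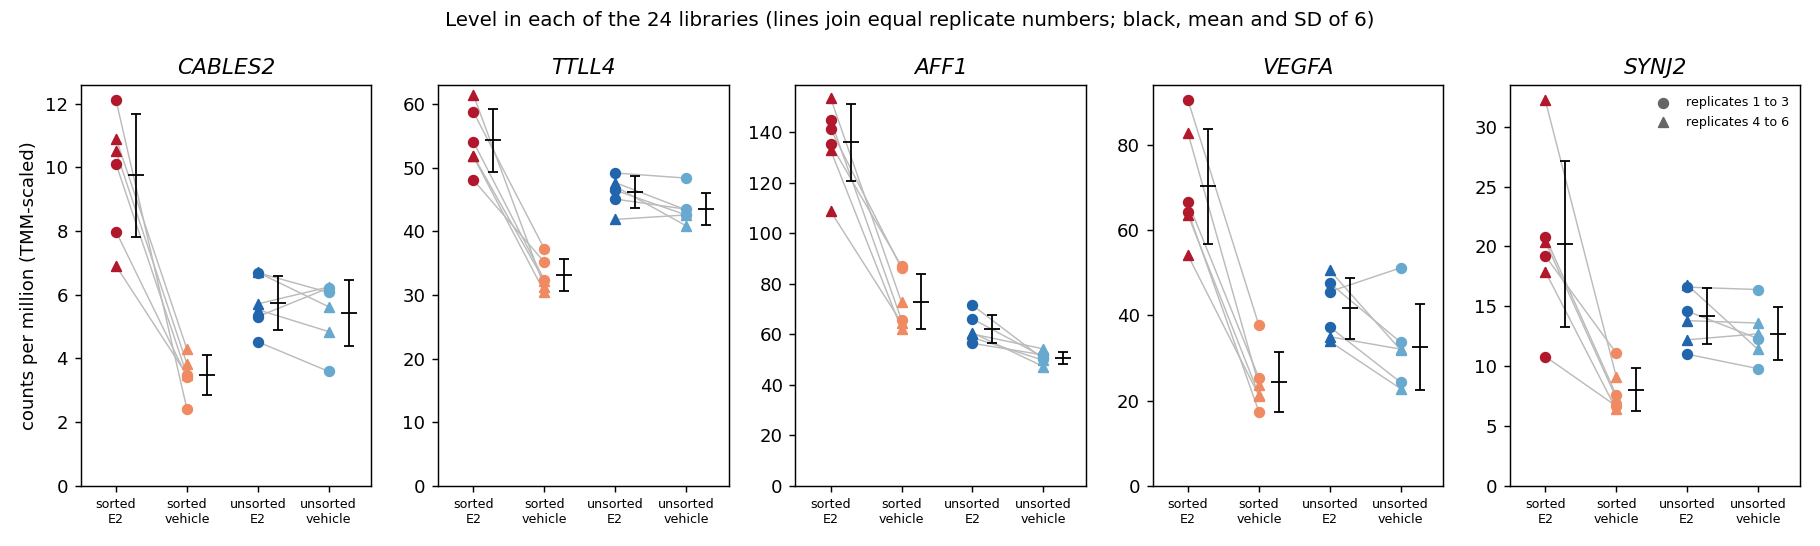
Level of each gene in CPM on a linear axis from 0, by group, in the 24 libraries, with lines joining equal replicate numbers and black bars for the mean and SD of 6. The sorted E2 points of VEGFA, CABLES2 and AFF1 lie above every point of the other groups, while those of SYNJ2 and TTLL4 overlap the unsorted E2 points.

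Put side by side, each gene's E2 ratio was larger in sorted than in unsorted cells in 6 of 6 replicate numbers, as was so for 3.78% of the 15134 genes tested, and the lowest sorted ratio was above the highest unsorted ratio, as for 0.866%. In sorted E2 against sorted vehicle libraries the ranges did not overlap for 4 of the 5 genes (1.1% of genes tested lay higher without overlap), in unsorted E2 against unsorted vehicle for AFF1 alone (0.436%), and in sorted E2 against unsorted E2 for 3 (12.8%). With vehicle alone, AFF1 lay above without overlap in sorted cells (11.5%) and TTLL4 below (15.6%). These counts follow from how the genes were picked. By edgeR, 5 of 5 were higher with E2 in sorted cells (1.11% of genes tested were), 0 of 5 in unsorted cells (0.212%, where DESeq2 called AFF1), and the difference passed for CABLES2 and TTLL4 (0.0264%). With the replicate block the counts were 5 (7.03%), 1, which was AFF1 (2.86%), and 5 (0.33%). DESeq2 called the difference for 4 of the 5, with no adjusted p for CABLES2. With the block it was called for 0 of 5 in replicates 1 to 3 alone and for 4 of 5 in replicates 4 to 6 alone. Leaving out any 1 replicate number without the block left the difference of 0 of the 5 past the threshold, and without replicate 6 SYNJ2 was no longer past it in sorted cells. The other genes past it for the difference without the block were KREMEN1, a receptor for Wnt antagonists, at 1.13 ± 0.21 (log2 ± SE), and PLEKHM1, a lysosome and autophagy adaptor, at 0.80 ± 0.14. Among the 4 genes called for it, KREMEN1 stands directly below CABLES2, and PLEKHM1 directly above TTLL4. The authors' deposited tables give log2 E2 over vehicle of 1.54, 1.36, 0.74, 1.47 and 0.92 in sorted cells for VEGFA, SYNJ2, TTLL4, CABLES2 and AFF1. For unsorted cells the authors' deposited tables give 0.35, 0.15, 0.08, 0.08 and 0.29 for the same genes.

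**Figure D2:**
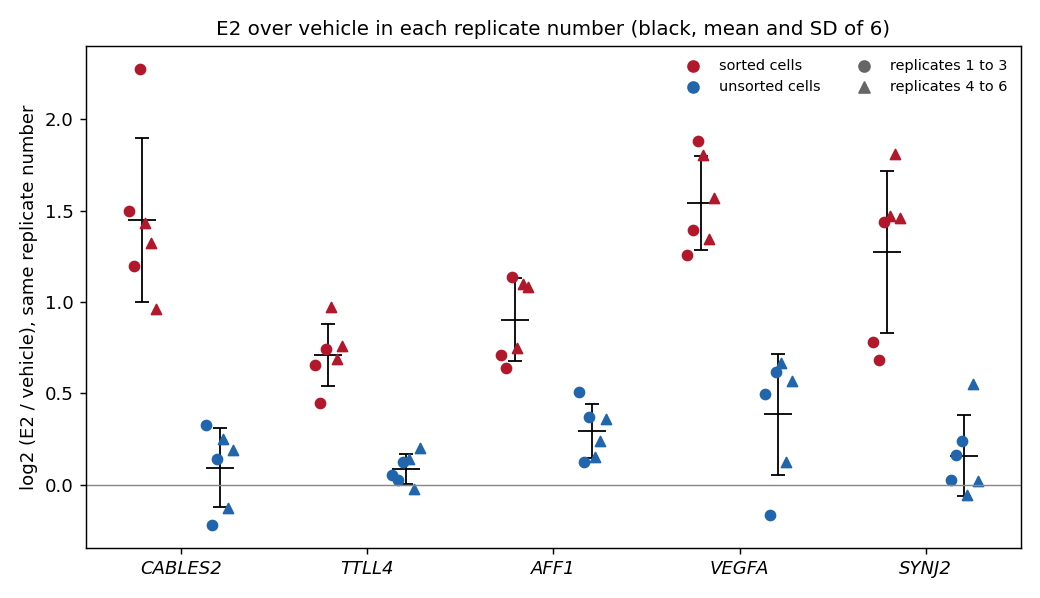
Log2 ratio of E2 over vehicle libraries of the same replicate number, in sorted cells (red) and unsorted cells (blue), with bars for the mean and SD of 6; circles are replicates 1 to 3 and triangles replicates 4 to 6. For each gene the 6 red points lie above the 6 blue points, and CABLES2 in replicate 3 is the highest point at 2.28.

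The mean of the E2 and the vehicle level is independent of the contrast that picked the genes, and it asks whether a gene was more abundant in sorted cells on average over both treatments. AFF1 was. Its mean log2 CPM was 6.63 ± 0.16 in sorted cells and 5.81 ± 0.07 in unsorted cells (SD, n = 6 replicate numbers each), and it was higher in sorted cells in 6 of 6 numbers. The edgeR estimate was 0.83 ± 0.07 (log2 ± SE, adjusted p = 1.6e-10), and the 2-sided exact permutation test gave p = 0.00216, the smallest that 6 against 6 allows. The edgeR fit took the E2 and the vehicle library of the same number and preparation as independent. With group means removed, these correlated at r = 0.661 to 0.859 in sorted and 0.57 to 0.837 in unsorted cells. Its SE and adjusted p for the sorting effect may therefore be too small, also for markers and list genes. The permutation test used the mean of the 2 libraries. Of all genes tested, 66.3% passed the edgeR threshold for this effect, 33.8% higher and 32.5% lower in sorted cells, and 1 of 5 is below that share. For the other 4 genes the estimates were 0.17 ± 0.13 for VEGFA, 0.06 ± 0.12 for CABLES2, -0.07 ± 0.14 for SYNJ2 and -0.08 ± 0.05 for TTLL4. Their exact permutation p-values were 0.329 for VEGFA, 0.649 for CABLES2, 0.554 for SYNJ2 and 0.0974 for TTLL4. These 4 were higher in sorted cells in 0 or 1 of 6 numbers with vehicle and in 5 or 6 of 6 with E2. Opposite differences thus partly cancel in their averages. The median of the 5 was 0.0636 and that of all tested genes 0.018.

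The E2 difference was also compared between the 2 depth sets. This splits the same ratios that the genes were picked on, and the fit called 0 of 15134 genes. It therefore cannot show that the response had the same size in both sets. In sorted cells the E2 difference in replicates 4 to 6 minus that in replicates 1 to 3 was 0.63 ± 0.38 (log2 ± SE) for SYNJ2, -0.40 ± 0.34 for CABLES2, 0.19 ± 0.13 for TTLL4, 0.17 ± 0.16 for AFF1 and 0.14 ± 0.37 for VEGFA. None of the 5 passed edgeR's threshold (0% of genes did, 150 of 15134 had an unadjusted p under 0.05, and DESeq2 called 0). SYNJ2 had a mean log2 ratio of 1.58 in the deep replicates, all 3 above every shallow one, and of 0.97 in the shallow replicates. Across the 5 genes the largest ratio in sorted cells fell in replicate 3 for CABLES2, AFF1 and VEGFA, and the smallest in replicate 2 for TTLL4, AFF1 and SYNJ2.

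**Figure D3:**
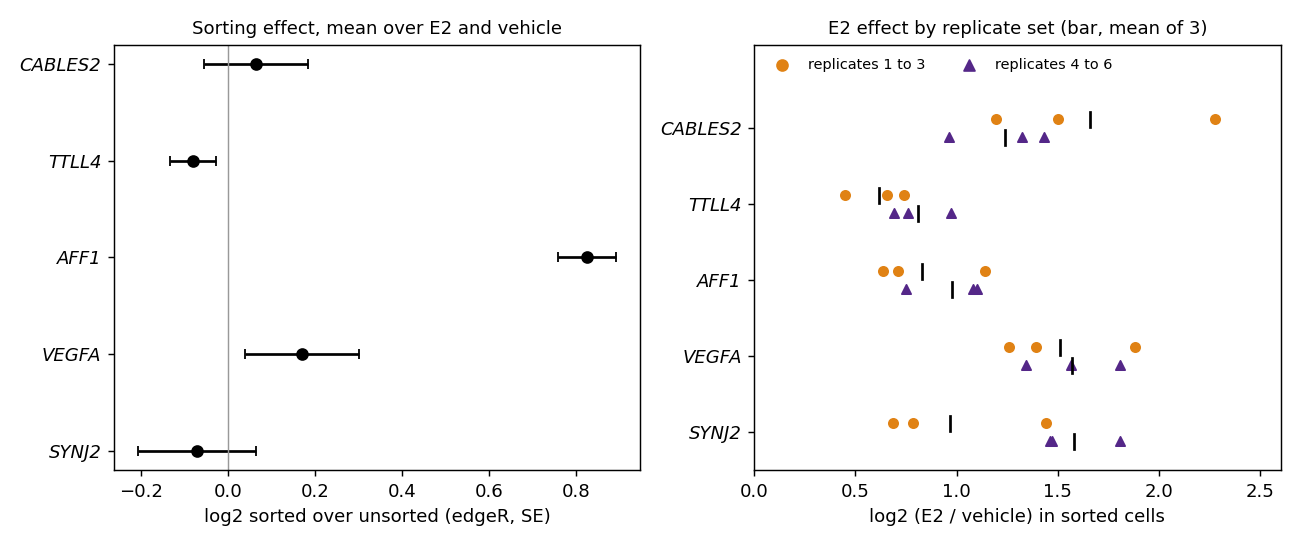
Left, log2 level in sorted over unsorted cells averaged over E2 and vehicle, with the SE of the edgeR fit; AFF1 at 0.83 stands away from 0 and the other 4 lie between -0.08 and 0.17. Right, log2 E2 over vehicle in sorted cells for each replicate number, circles for replicates 1 to 3 and triangles for replicates 4 to 6, with a bar at the mean of 3.

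Genes of the same pathways were read from lists in the same fits. Of 8 tested VEGF ligands and receptors other than VEGFA, NRP1, a co-receptor for VEGFA, fell with E2 in sorted cells by 0.86 ± 0.19 on the log2 scale (adjusted p = 0.0468), where 1.37% of all genes were called and 0.258% fell. The share that fell was 0.0331% in unsorted cells, and with the replicate block it was 6.2% in sorted and 2.37% in unsorted cells. Of all genes 7.03% rose with the block in sorted cells and 2.86% in unsorted cells. NRP1 averaged 61.3 ± 11.8 CPM in sorted E2 libraries and 111.4 ± 36.8 CPM in sorted vehicle libraries (SD, n = 6 each), and 63.0 ± 10.1 CPM in unsorted E2 libraries and 89.4 ± 14.2 CPM in unsorted vehicle libraries. With the replicate block NRP1 fell in both preparations (-0.86 ± 0.07, adjusted p = 2.68e-07, in sorted cells and -0.53 ± 0.06, adjusted p = 2.74e-06, in unsorted cells). PGF, the placental growth factor that binds the receptor FLT1, likewise rose in both with the block, by 1.22 ± 0.15 (adjusted p = 1.2e-05) in sorted cells and 1.46 ± 0.16 (adjusted p = 4.04e-06) in unsorted cells. NRP2, the related co-receptor, fell by 0.24 ± 0.06 with the block in sorted cells (adjusted p = 0.00458). Without the block PGF missed the threshold, at 1.10 ± 0.34 in sorted cells and 1.46 ± 0.35 in unsorted cells. The median of the list was -0.11 in sorted cells.

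The receptors FLT4 (-2.21 ± 0.23, adjusted p = 8.21e-09) and FLT1 (-1.74 ± 0.30, adjusted p = 2.16e-05) and the ligand VEGFC (-1.40 ± 0.15, adjusted p = 1.85e-08) were lower in sorted cells over both treatments. The limit given above for the edgeR fit of the sorting effect holds for these and the following lists. PGF was higher there (1.52 ± 0.26, adjusted p = 1.49e-05), and in all 7 of 9 tested genes of the list were lower and 1 higher, where 32.5% of all genes were lower and 33.8% higher. Markers of endothelial cells, which carry these receptors, summed to 19.3 to 55.1 CPM in sorted E2, 19.0 to 50 in sorted vehicle, 46.6 to 93.3 in unsorted E2 and 43.7 to 94.2 CPM in unsorted vehicle libraries, and their part was not tested. Of 9 tested endothelial markers 6 were called lower and 1 higher in sorted cells.

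VEGFA is a known target of hypoxia factors. Of 18 tested hypoxia factors and targets, edgeR called 0 with E2 in sorted cells, where it called 1.37% of all genes (1 had an unadjusted p under 0.05, and DESeq2 called 0). With the replicate block 1 of the 18 rose and 2 fell in sorted cells, where 7.03% of all genes rose and 6.2% fell. EPAS1, a hypoxia-inducible factor, rose by 0.33 ± 0.05 (log2 ± SE, adjusted p = 6.51e-05) with the block. The glucose transporter SLC2A1 fell by 0.22 ± 0.06 (adjusted p = 0.0195) and the carbonic anhydrase CA9 fell by 0.46 ± 0.14 (adjusted p = 0.0294) in that fit. The list's median was -0.06, against -0.000394 for all genes.

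For SYNJ2, the list of partners and clathrin endocytosis genes had 1 of 18 called in sorted cells, where 1.37% of all genes were called. This was SH3GL1, an endophilin that recruits synaptojanin to membranes, which rose by 0.72 ± 0.13 (log2 ± SE, adjusted p = 0.0127). It averaged 143.1 ± 30.4 CPM in sorted E2 libraries and 87.1 ± 11.5 CPM in sorted vehicle libraries, and 109.2 ± 20.6 CPM in unsorted E2 libraries and 87.4 ± 15.7 CPM in unsorted vehicle libraries (SD, n = 6 each). With the block SH3GL1 also rose in unsorted cells, by 0.32 ± 0.05 (adjusted p = 0.000165), and its difference between sorted and unsorted cells was 0.39 ± 0.09 (adjusted p = 0.0433), a call that the fit without the block did not make (0.40 ± 0.21, adjusted p = 1.00). BIN1, an amphiphysin that bends membranes, rose by 0.22 ± 0.06 (adjusted p = 0.0145) and EPS15, a clathrin adaptor, by 0.12 ± 0.04 (adjusted p = 0.0496) in sorted cells with the block. In that fit 3 of the 18 rose and 0 fell, where 7.03% of all genes rose and 6.2% fell. Of all genes 2.86% rose with the block in unsorted cells, and the difference was called higher for 0.33%.

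Among 12 tested phosphoinositide phosphatases edgeR called 0 with E2 in sorted cells (1 had an unadjusted p under 0.05, and DESeq2 called 0). SYNJ1, the close relative of SYNJ2, was not among those that passed with the block in sorted cells, which were SACM1L (0.35 ± 0.05, adjusted p = 0.000157), INPP4A (0.18 ± 0.04, adjusted p = 0.00623), INPPL1 (0.14 ± 0.04, adjusted p = 0.0147) and INPP5F (-0.19 ± 0.04, adjusted p = 0.00186). Of the 12 genes 3 rose and 1 fell in that fit, where 7.03% of all genes rose and 6.2% fell. SYNJ1 fell in unsorted cells with the block, by 0.27 ± 0.05 (adjusted p = 0.00102), where 2.37% of all genes fell. Over both treatments SYNJ1 was higher in sorted cells by 0.84 ± 0.07 (adjusted p = 1.25e-10), as were 9 of 13 genes of this list, while the other 4 were lower. Of all genes, 33.8% were higher and 32.5% lower.

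For TTLL4, edgeR called 0 of 16 tested tubulin glutamylation and deglutamylation genes with E2 in sorted cells (1 had an unadjusted p under 0.05, and DESeq2 called AGTPBP1), with a list median of -0.02. AGTPBP1, which removes glutamate from tubulin, fell with the block by 0.38 ± 0.05 (log2 ± SE, adjusted p = 3.67e-05) in sorted cells and by 0.29 ± 0.06 (adjusted p = 0.0033) in unsorted cells. TTLL7, a tubulin polyglutamylase, fell by 0.18 ± 0.05 (adjusted p = 0.0138) in sorted cells and its relative TTLL6 fell by 0.87 ± 0.23 (adjusted p = 0.032) in unsorted cells with the block. In each preparation 2 of the 16 fell and 0 rose with the block. Of all genes 6.2% fell in sorted and 2.37% in unsorted cells in those fits. Over both treatments TTLL5 (-1.005 ± 0.08, adjusted p = 1.35e-10) and TPGS2 (-1.17 ± 0.10, adjusted p = 2.22e-10), a subunit of the polyglutamylase complex, were lower in sorted cells. Of the 16 genes 9 were higher and 3 lower, against 33.8% and 32.5% of all genes.

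For CABLES2, edgeR called 0 of 13 tested CABLES and CDK5 genes with E2 in sorted cells (1 had an unadjusted p under 0.05, and DESeq2 called 0). The kinase ABL1 rose with the block by 0.33 ± 0.05 (log2 ± SE, adjusted p = 5.1e-05), with 70.5 ± 9.10 CPM in sorted E2 libraries and 55.9 ± 7.98 CPM in sorted vehicle libraries (SD, n = 6 each). In that fit 1 of the 13 rose and 0 fell, where 7.03% of all genes rose and 6.2% fell. CABLES1, the relative of CABLES2, was lower in sorted cells over both treatments (-2.31 ± 0.21, adjusted p = 8.29e-10). Of the 13 genes 6 were higher and 5 lower there, against 33.8% and 32.5% of all genes.

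For AFF1, 1 of 21 tested super elongation and pause release genes was called in sorted cells, against 1.37% of all genes. MLLT3, which binds AFF1 within the complex in human cells, rose by 0.71 ± 0.13 (log2 ± SE, adjusted p = 0.0113). Its mean was 110.6 ± 23.3 CPM in sorted E2 libraries and 67.8 ± 9.08 CPM in sorted vehicle libraries, and 83.7 ± 12.6 CPM in unsorted E2 libraries and 64.3 ± 10.3 CPM in unsorted vehicle libraries (SD, n = 6 each). With the block MLLT3 rose in unsorted cells too, by 0.38 ± 0.05 (adjusted p = 3.44e-05), and the elongation factor ELL3 fell by 0.45 ± 0.12 in sorted cells (adjusted p = 0.0162). Of the 21 genes 1 rose and 1 fell in sorted cells with the block, where 7.03% of all genes rose and 6.2% fell. In unsorted cells 1 rose, where 2.86% of all genes rose. Over both treatments SUPT5H (0.54 ± 0.07, adjusted p = 2.07e-07) was higher and its partner SUPT4H1 (-0.71 ± 0.06, adjusted p = 8.62e-10) lower in sorted cells. Of the 21 genes 10 were higher and 4 lower, against 33.8% and 32.5% of all genes.

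In unsorted cells edgeR called 0 genes of these 7 lists without the block, where DESeq2 called NRP1 and PGF, and 7 genes had an unadjusted p under 0.05. For the difference between the preparations edgeR and DESeq2 called 0, and 0 had an unadjusted p under 0.05. Each of the 7 lists had its median E2 effect in sorted cells between -0.11 and 0.01, against 1.34 for the 5 genes. The 5 genes were picked for their E2 rise, so this gap follows from the choice.

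**Figure D4:**
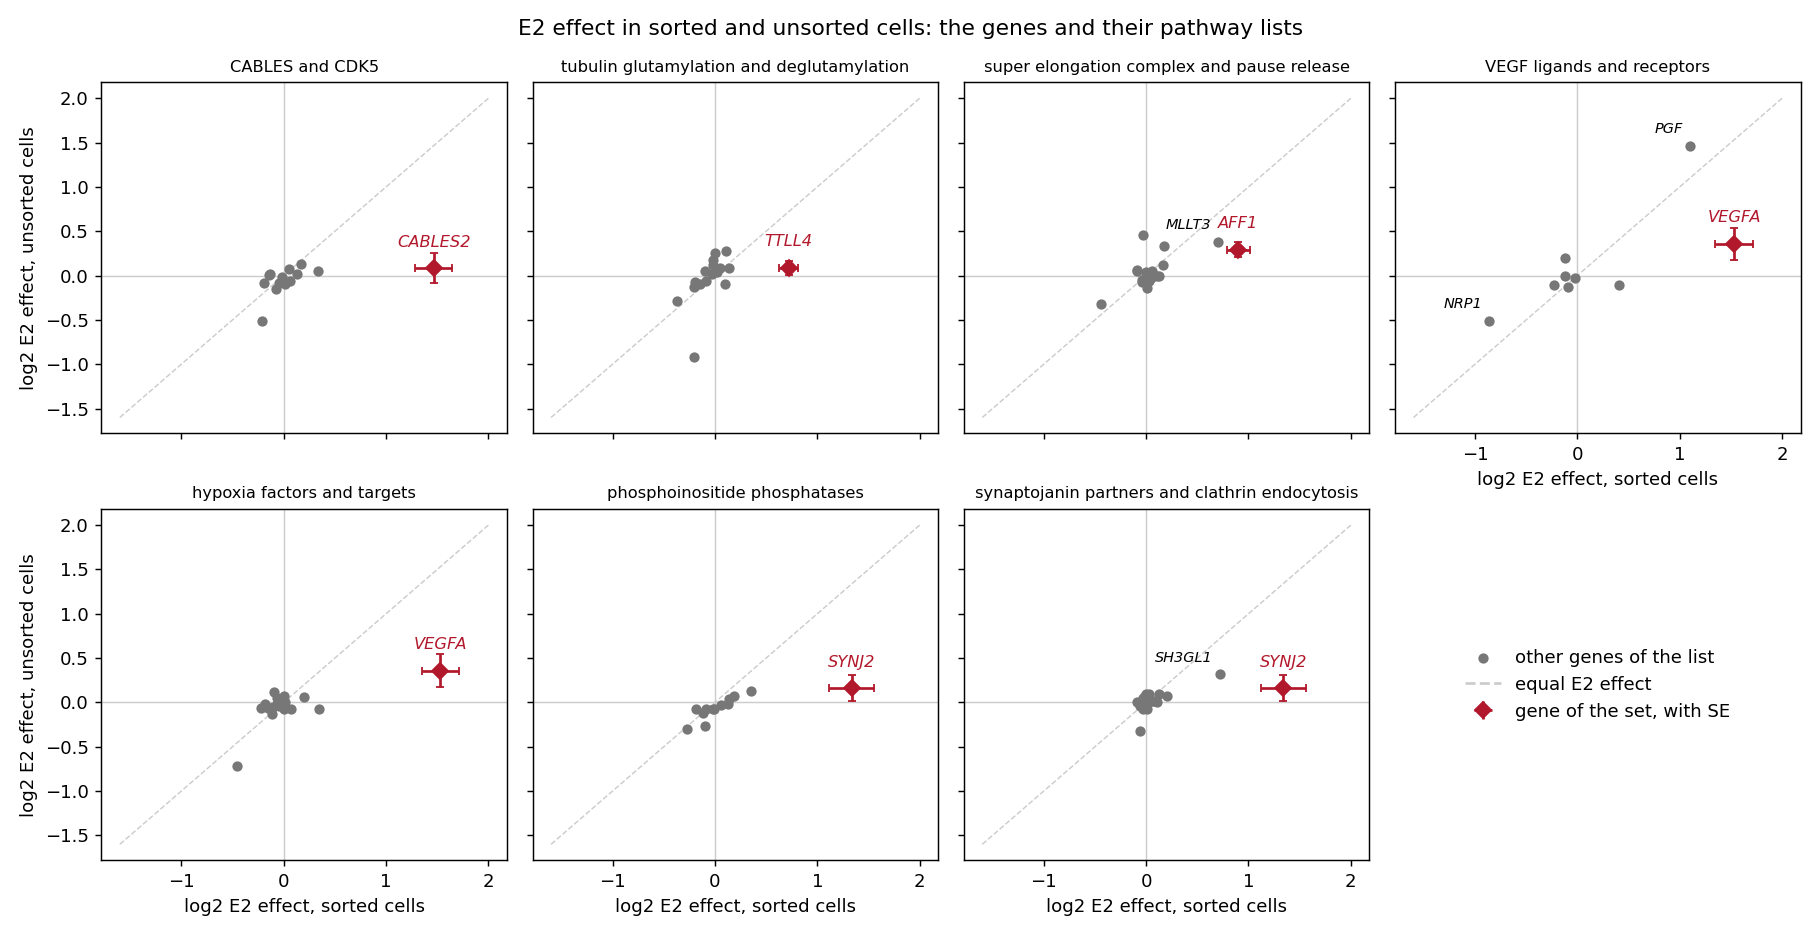
Log2 E2 effect in sorted cells (horizontal) against unsorted cells (vertical) for the 7 lists, with the 5 genes as red diamonds with SE and other genes of each list in grey; the dashed line marks equal effects. Most grey points lie near 0, and NRP1, PGF, SH3GL1 and MLLT3 are named.

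The receptor side was read from 9 tested estrogen receptor and coregulator genes. In sorted cells E2 raised the corepressors NCOR1 (0.35 ± 0.05, adjusted p = 0.0032) and NRIP1 (1.07 ± 0.18, adjusted p = 0.00576) and the estrogen target GREB1 (2.18 ± 0.47, adjusted p = 0.0408), while the coactivator NCOA2 fell by 0.42 ± 0.09 (adjusted p = 0.0427). NRIP1 was the gene of this list whose E2 effect differed between the preparations with the block, by 0.77 ± 0.10 (adjusted p = 0.000501). Of all genes 0.33% were called higher for that difference. ESR1 itself averaged 37.7 ± 3.55 CPM in sorted E2 libraries and 50.5 ± 7.75 CPM in sorted vehicle libraries, and 19.6 ± 3.15 CPM in unsorted E2 libraries and 30.5 ± 6.59 CPM in unsorted vehicle libraries (SD, n = 6 each). It was higher in sorted cells over both treatments by 0.83 ± 0.10 (adjusted p = 6.76e-08). Of the 9 genes 8 were higher and 0 lower there, against 33.8% and 32.5% of all genes.

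The pattern over the 24 libraries, after removing each replicate number's mean, was compared with all 11321 genes that have a symbol and at least 1 CPM on average. These Pearson correlations are descriptions, since the points share libraries, treatment groups and depth. VEGFA, SYNJ2, TTLL4, CABLES2 and AFF1 were also picked because E2 raised them more in sorted than in unsorted cells of these libraries. High r between them is therefore partly built in by the choice and counts as no support. CABLES2 was most like VEGFA (r = 0.932), TTLL4 (r = 0.917) and RHBDL3 (r = 0.899), a rhomboid-like membrane protein. TTLL4 was most like SYNJ2 (r = 0.922), VEGFA (r = 0.918) and CABLES2 (r = 0.917). VEGFA was most like RHBDL3 (r = 0.939), PLEKHM1 (r = 0.934) and CABLES2 (r = 0.932). The genes closest to SYNJ2 were TTLL4 (r = 0.922), the lipid kinase PIP4K2A (r = 0.908) and RAPGEF1 (r = 0.904), an exchange factor for Rap GTPases.

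AFF1 had other neighbours, GRAMD4 (r = 0.979), the chromatin remodeller CHD9 (r = 0.973) and ZSWIM5 (r = 0.968), and its r with the other 4 genes was 0.456 to 0.704. The pairs without AFF1 had r from 0.843 to 0.932, which the choice of the genes favours. GRAMD4 had the same order of groups, with 47.5 ± 7.2 CPM in sorted E2, 27.7 ± 3.32 in sorted vehicle, 23.0 ± 2.79 in unsorted E2 and 19.3 ± 2.71 CPM in unsorted vehicle libraries (SD, n = 6 each). RHBDL3 went with the other pattern, at 13.1 ± 3.92 CPM in sorted E2, 2.50 ± 1.23 in sorted vehicle, 6.74 ± 1.73 in unsorted E2 and 3.61 ± 1.21 CPM in unsorted vehicle libraries (SD, n = 6 each). When the mean of each depth set was removed in place of each number's mean, 8 of the 15 named neighbours were named again. The pairs without AFF1 then had r from 0.683 to 0.898.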

How the data were processed

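The deposited tables hold whole-number counts of reads per gene, with Ensembl sheep identifiers and gene names, counted with featureCounts 1.5.1 per the submitters' processing notes. Which aligner, build and strand option were used is not given in the sources used here. Whether reads of overlapping genes on opposite strands were counted apart is therefore not known. The log2 fold changes of the authors' deposited tables are quoted where named; their table of sorted against unsorted vehicle libraries was left out. Each of the 12 vehicle libraries appears in 2 of the tables, with 0 values that differ. The fits used edgeR 4.0.16 (R 4.3.3; TMM scaling, filterByExpr with a minimum count of 10, robust quasi-likelihood F-test, Benjamini-Hochberg over all genes tested, threshold 0.05). A standard error is the log2 fold change over the square root of F. Levels were computed as CPM with TMM-scaled totals; log2 CPM used a prior count of 2. Exact permutation tests were 2-sided (numpy 2.4.6). The fitting code was tested on simulated data. Counted reads include copies of one molecule, so precision at a given depth is overstated by counting alone.

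The 5 genes, the gene lists and the tests were chosen with earlier results of these data known. Named besides the 5 genes were the 3 genes most correlated with each, up to 4 genes per list and comparison with the smallest p among those past the threshold, and the genes next to each of the 5 in the order of called E2 differences. The rule names further genes, most of them by the sorting effect, that are not reported here. Genes named from fits with the replicate block follow from counts given there. CHGA and the other cell markers were named from fixed marker lists.

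Equal replicate numbers deviated together: after group and depth-set means were removed, same-numbered libraries of different groups correlated at r = 0.255 to 0.824, each best with its own number. The pairing therefore comes from the counts, not from the labels. Alternatives were the replicate block, DESeq2 1.42.0 size factors and test, no count filter, each replicate number left out, and each depth set alone.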

Additional observations from a re-analysis of the deposited data

Results flagged for a closer look

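TTLL4 in unsorted vehicle replicate 2 stood at 48.4 CPM, further from the other 5 libraries of that group than Dixon's 95% limit for 6 values. The other 5 lay between 40.9 and 43.5 CPM. It was 1 of 30 sets of 6 values looked at, and chance alone puts about 1 set in 20 past that limit. The E2 effects of CABLES2 differed between sorted and unsorted cells by 1.38 on the log2 scale and those of TTLL4 by 0.63, both past edgeR's threshold for the difference. These differences are what the genes were picked for and count as no support.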

How the results depend on the processing

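Every E2 effect in sorted cells and every difference of the 5 genes kept its sign under all alternatives run. The genes were picked on these values, which were positive in 6 of 6 replicate numbers for each gene. The kept sign therefore follows from the choice and counts as no support. The number of genes called with E2 in sorted cells was 196 in the reported fit, 1896 with the replicate block, 401 by DESeq2, 22 in replicates 1 to 3 alone (563 with the block), 1277 in replicates 4 to 6 with the block, and 84 to 170 without 1 replicate number. In unsorted cells it was 37, against 790 with the block, 124 by DESeq2, 0 in replicates 1 to 3 (322 at an unadjusted p under 0.05; 67 with the block), 20 in replicates 4 to 6 (730 with the block), and 3 to 31 without 1 number. The difference called 4 genes, against 70 with the block, 22 by DESeq2, 0 with no count filter, 0 in replicates 1 to 3 (2 with the block), 0 in replicates 4 to 6 (47 with the block), and 0 to 1 without 1 number; unadjusted, 164 to 441 genes passed in the fits with 0. The share of higher calls in sorted cells was 81.1%, and 53.2% with the block. In replicates 1 to 3 alone, AFF1 was the 1 gene of the 5 past the threshold in sorted cells. The sorting effect of AFF1 passed the permutation test over 5 genes. The paired sign-flip test gave 0 of 5; its smallest p over 6 pairs, 0.0312, which AFF1 had, cannot pass for a single gene of 5 after adjustment, so it says nothing about AFF1. The block changed no call of the 5 genes other than those named in the report. Depth limits CABLES2 most, with as few as 14 counts in a library. The causes of these changes were not tested.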
